A study of Homo sapiens with 12 samples.

Results

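The 3 mRNA libraries of sunitinib-resistant A498 cells (A498-Su) were compared with the 3 libraries of parental A498, which makes 6 of the 12 libraries of the series. They were chosen by label and by column name. A498 and 786-O are established human clear cell renal cell carcinoma (ccRCC) cell lines. Resistance had been selected with 2 µM sunitinib for A498-Su and with 4 µM for its counterpart, resistant 786-O, over 4 months or upwards of 20 passages. The titles of all 12 libraries carry the tag veh, which they do not explain, and name no other treatment. Each resistant line is 1 selected culture. The 3 libraries of parental 786-O were added as a reference, because the A498-Su libraries resembled 786-O, and the 3 libraries of resistant 786-O are given where they bear on a gene.

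Sunitinib is an inhibitor of receptor tyrosine kinases, foremost the VEGF and PDGF receptors and KIT. In ccRCC the loss of VHL leaves hypoxia-inducible factors active, which drives angiogenic and metabolic genes, and the tumour cells retain features of the proximal tubule. Cell lines from different patients differ in many genes.

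Libraries of A498 totalled 21686648 to 34951585 counts and those of A498-Su 20042519 to 25831163, against 40845091 to 47972092 for 786-O and 42643735 to 46888482 for resistant 786-O. Levels are given in CPM, counts scaled to a common normalised library size, and as mean ± SD over the 3 libraries of a group where they are not given singly. They do not take gene length into account, and are compared between groups and not between genes. Of 45478 genes, 19929 had enough counts to be tested. Each group carried its own batch label, so batch and group cannot be told apart. Nothing states that the replicate libraries came from separate cultures, so the p-values measure the spread between libraries, which may be technical. Because RNA was taken from whole cultures, fewer cells of a kind and less RNA per cell cannot be told apart.

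The renal identity of the cultures was checked on 16 markers of renal carcinoma cells, of which 12 had a mean of at least 10 CPM in A498 and 13 in A498-Su, among them PAX8, VIM and CDH2. CA9, a carbonic anhydrase and common ccRCC marker, was at 1.56, 1.07 and 1.25 CPM in the A498 libraries and at 0.0373, 0 and 0 CPM in those of A498-Su. EPCAM stood at 0.492, 0.418 and 0.662 CPM in A498 and at 0.298, 0.479 and 0.313 CPM in A498-Su, so that both of these markers were near the bottom of the range. Markers of other cells were scarce. The summed level of 12 macrophage markers did not exceed 2.51 CPM in A498 or 1.33 CPM in A498-Su, and of 17 T cell markers, IL7R alone reached 10 CPM, with CD3D, CD3E and CD3G at 0 counts in all 6 libraries. EGFL7 alone did so among 12 endothelial markers. Among 12 fibroblast markers COL1A1 and ACTA2 reached 10 CPM in A498, and LUM in A498-Su.

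The A498-Su libraries went against their label in that they lay closer to the other cell line than to their own parent. Over the genes tested, the median absolute log2 difference in mean CPM + 1 between A498-Su and the other groups was 0.415 for A498, 0.297 for 786-O and 0.194 for resistant 786-O. Replicate 2 of resistant 786-O stood apart within its group, with a median absolute log2 difference of 0.154 from the other libraries. Replicates 1 and 3 of that group were at 0.101 and 0.103, and the libraries of A498 and A498-Su at 0.0614 to 0.0737. Values of resistant 786-O are therefore given with their SD where a statement rests on them. Whether the A498-Su culture was derived from A498 was not tested, so that higher, lower, rose and fell refer only to the levels of the A498-Su libraries against those of A498. Genes were then separated by whether they followed the 786-O minus A498 difference. A gene was called changed when the quasi-likelihood test of edgeR, adjusted after Benjamini and Hochberg over all genes tested, gave an adjusted p under 0.05 and the fold change exceeded 2. The comparisons of A498-Su and of 786-O with A498 share the A498 libraries, so the counts that set them side by side are descriptions.

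Compared to A498, 6137 genes were changed in A498-Su (30.8% of those tested), 2856 higher (14.3%) and 3281 lower (16.5%). In 786-O 6360 genes were changed against A498 (31.9%). Of the genes changed in A498-Su, 4010 (65.3%) were also called in the same direction in 786-O, which is 20.1% of the genes tested, and are termed following genes. They comprised 1546 higher and 2464 lower genes. Another 946 genes (4.75% of those tested) were apart from both parental lines, meaning that the lines themselves did not pass the call while A498-Su passed it in the same direction against either. These were 607 higher and 339 lower genes. In 204 genes (1.02%) A498-Su moved opposite to the line difference, with 172 higher and 32 lower. The remaining 977 changed genes (4.90%) were called against A498 alone. A further 2052 genes (10.3%) differed between the parental lines, but A498-Su stayed within 2-fold of A498. The change from A498 to A498-Su was also set against that from 786-O to resistant 786-O. The changes differed at an adjusted p under 0.05 in 4900 of the 6137 genes, and in 68.3% of all genes tested. The 6137 genes were chosen by the first of these changes, so their share was partly set by that choice.

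**Figure D1:**
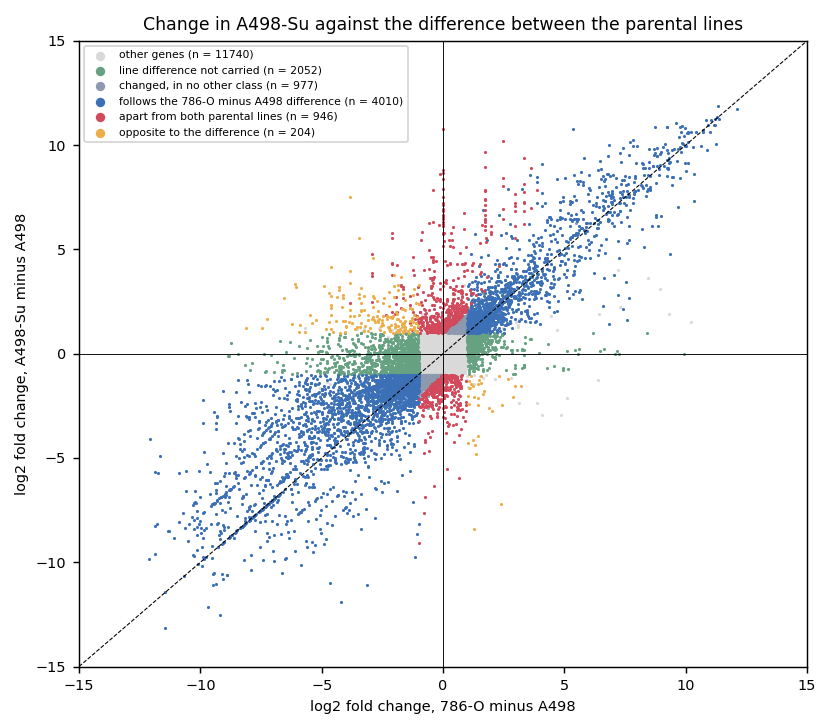
Each point is a tested gene, with its log2 fold change of 786-O over A498 on the x axis and of A498-Su over A498 on the y axis, coloured by class, and a dashed line of equality. The 4010 following genes lie to the upper right and lower left, around the line of equality, while the 946 genes apart from both lines lie near 0 on the x axis, above and below the horizontal line at 0.

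The share of line differences that A498-Su followed is given by their size. Of 3052 genes whose levels differed between the parental lines by 1 to 2 on the log2 scale, 45.7% were followed, against 70.3% of 1722 genes that differed by 2 to 4 and 88.5% of 1586 genes that differed by more than 4. A following gene must itself pass the 2-fold call, so this rise with size was partly set by the rule. The log2 fold change of A498-Su, as a fraction of the line difference, had medians of 0.703, 0.707 and 0.778 in these sets. Among genes that differed by more than 4, A498-Su followed 93.3% of the 463 higher in 786-O and 86.6% of the 1123 lower there. Following genes did not always stop at the 786-O level. Against 786-O, 2917 of the 4010 did not pass the call, while 723 stopped short of 786-O and 370 went past it. Short stops made up 24.6% of the lower following genes and 7.57% of the higher ones. Against 786-O itself 3983 genes were changed in A498-Su (20.0%).

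Some genes were expressed in one of these groups and at the floor in the other. At least 10 CPM in A498 and no more than 3 counts in any A498-Su library were found for 54 genes, of which 51 were following genes. At most 3 counts in every library were also found in 786-O for 33 of the 54. None of the 54 reached 10 CPM in resistant 786-O. The converse, at least 10 CPM in A498-Su and no more than 3 counts in any A498 library, was found for 30 genes outside the Y chromosome, of which 29 were following genes and none was at this floor in 786-O.

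The higher following genes with the largest changes, among protein-coding genes that reached 10 CPM, were NNT, GSTP1, MANEAL, FBXL7, UGT1A8 and SARDH. NNT, the mitochondrial transhydrogenase that supplies NADPH (chr5:43602692-43707405, in the GRCh38 build, as are all coordinates), was at 0.116, 0.139 and 0.110 CPM in the A498 libraries and at 235, 237 and 235 CPM in those of A498-Su. In 786-O its mean was 115 ± 1.90 CPM. From A498 to A498-Su, NNT rose by 10.89 on the log2 scale (SE 0.20, adjusted p = 1.48e-15). The A498 libraries were all near 0, and the groups did not overlap, as was the case for 78.5% of the genes tested. GSTP1, a glutathione transferase that detoxifies electrophiles (chr11:67583742-67586656), was at 0.290, 0.465 and 0.184 CPM in A498 and at 469, 504 and 481 CPM in A498-Su, with 363 ± 11.02 CPM in 786-O. Its log2 fold change was 10.64 (SE 0.11, adjusted p = 6.03e-18). MANEAL, a relative of the Golgi endomannosidase, was at 0, 0.0465 and 0 CPM in A498 and at 54.1, 50.1 and 52.3 CPM in A498-Su. Since no A498 library had more than 3 counts, the level was at least 465-fold higher in A498-Su, computed at a floor of 3 counts per library. At that floor FBXL7, an F-box protein of ubiquitin ligases, was at least 392-fold higher, with 42.9, 45.9 and 43.2 CPM in the A498-Su libraries and 25.0 ± 0.386 CPM in 786-O. UGT1A8, a glucuronosyltransferase, had no count in A498 and 13.4, 13.8 and 13.5 CPM in A498-Su, at least 121-fold more, but its reads are uncertain because it shares exons with the other UGT1A genes. SARDH, which oxidises sarcosine, was exceptional in that A498-Su went far past the reference line. It was at 26.0, 27.6 and 27.2 CPM in A498-Su, against 0.634 ± 0.154 CPM in 786-O and 10.3 ± 3.74 CPM in resistant 786-O.

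The lower following genes with the largest changes had at most 3 counts in any A498-Su library. ZFP42, a zinc finger protein known as a marker of pluripotent cells (chr4:187995771-188005046), was at 32.2, 32.5 and 34.2 CPM in the A498 libraries and had no count in any A498-Su library, which makes it at least 265-fold lower. GSTM1, a glutathione transferase of the mu class, was at 20.8, 22.1 and 20.7 CPM in A498 and likewise had no count in A498-Su, at least 171-fold lower. Its reads could be shared with the neighbouring GSTM genes. KIF21B, a kinesin motor, was at 17.9, 14.7 and 16.7 CPM in A498 and without a count in A498-Su, at least 133-fold lower. In 786-O these 3 genes had means of 0.00740, 0.0320 and 0.0160 CPM, so that they were as good as silent there too. TDRD9, a helicase of the piRNA pathway, fell from 48.2, 45.7 and 47.0 CPM to 0.0373, 0 and 0.0391 CPM, at least 378-fold. POPDC3, a membrane protein that binds cAMP, was at 28.0, 24.8 and 24.4 CPM in A498 and 0.0373, 0 and 0 CPM in A498-Su, at least 207-fold lower. RPL39L, a ribosomal protein paralog whose reads may be shared with RPL39, was at least 307-fold lower.

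**Figure D2:**
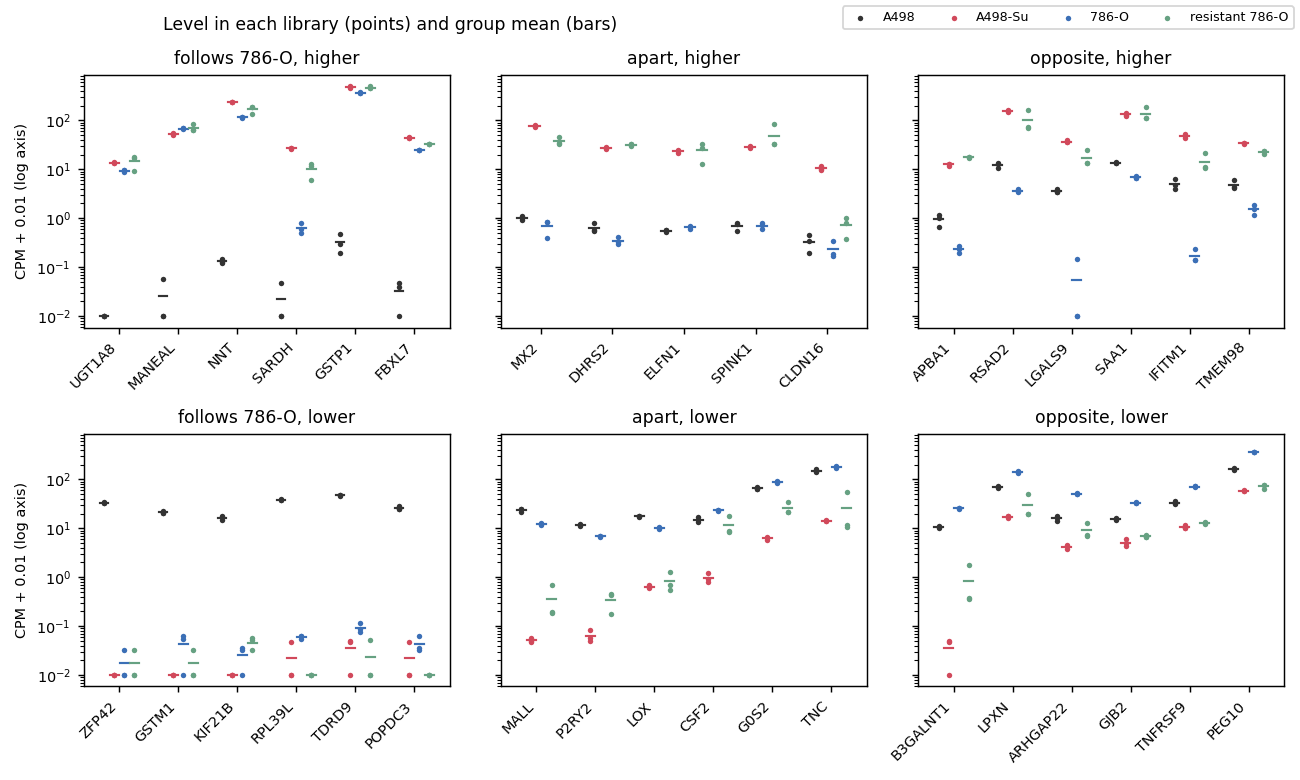
CPM + 0.01 on a log axis in each of the 12 libraries (points) with group means (bars) for 5 or 6 genes of each class and direction with the largest changes. In the left panels A498-Su sits with 786-O and resistant 786-O and away from A498, except for SARDH. For SARDH 786-O lies between A498 and A498-Su. In the middle panels A498 and 786-O sit together, with A498-Su away from both. By its mean, resistant 786-O lies nearer to A498-Su there than to the parental lines, except for CLDN16, CSF2 and G0S2.

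The changed genes were then grouped by function, using 29 lists. Their counts are to be read against all genes tested, of which 14.3% were called higher and 16.5% lower. NRF2 is the transcription factor that induces antioxidant and detoxifying enzymes, among them enzymes that make and use glutathione and NADPH. Of 30 measured NRF2 targets, 21 were lower in A498-Su and none was higher, against 16.5% and 14.3% of all genes tested, and 19 of the 21 were following genes. The median log2 fold change was -1.64, against -0.0041 over all genes, with -1.68 for 786-O over A498. Under the alternative scalings, filters and models the median of the list ranged from -1.78 to -1.57. AKR1B10, an aldo-keto reductase, was at 1861, 1492 and 1469.7 CPM in the A498 libraries and at 5.26, 5.07 and 5.56 CPM in those of A498-Su, with 5.27 ± 0.594 CPM in 786-O. The groups were far apart, with a log2 fold change of -8.24 (SE 0.13, adjusted p = 2.61e-16). The related AKR1C1, AKR1C2 and AKR1C3, steroid and prostaglandin reductases whose near-identical sequences make the assignment of reads uncertain, fell from 713, 303 and 482 CPM to 3.43, 0.732 and 8.82 CPM. NQO1, a quinone reductase, was at 1249, 1102 and 1086 CPM in A498 and at 179, 173 and 178 CPM in A498-Su, with a log2 fold change of -2.70 (SE 0.07, adjusted p = 3.26e-14). Heme oxygenase HMOX1 fell from 549.7 ± 22.8 to 52.5 ± 0.934 CPM. TXNRD1, which reduces thioredoxin, fell from 1906 ± 68.2 to 627 ± 15.3 CPM, and the cystine transporter SLC7A11 from 271 ± 9.27 to 85.2 ± 2.28 CPM. The list thus moved with the reference line, in which NQO1 stood at 256 ± 2.60 and TXNRD1 at 645 ± 2.49 CPM. NFE2L2, which encodes NRF2, was at 200.8 ± 7.16 CPM in A498 and, with a log2 fold change of -0.55 that did not reach 2-fold, at 137 ± 3.35 CPM in A498-Su.

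**Figure D3:**
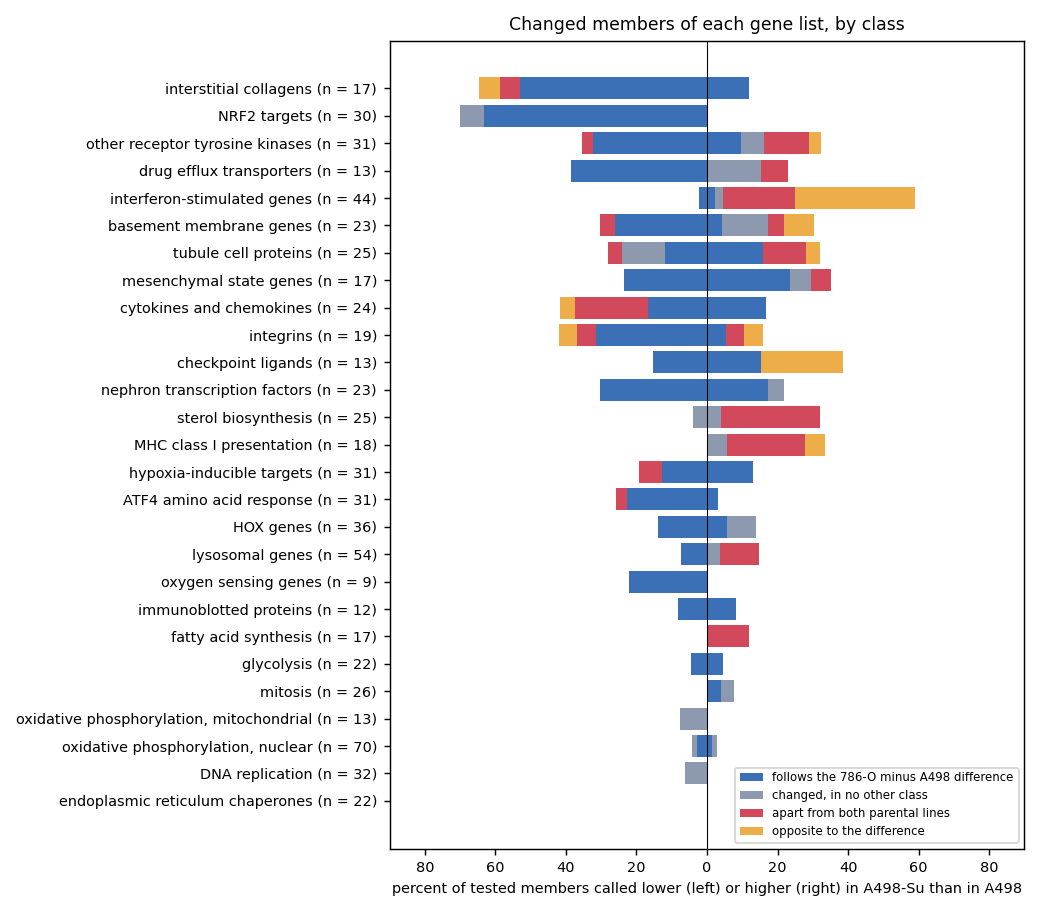
Bars give the percentage of the tested members of each list that were called lower (left of 0) or higher (right of 0) in A498-Su than in A498, split by class. The called members of NRF2 targets (21 of 30 lower) and interstitial collagens (11 of 17 lower) are mostly following genes. Those of interferon-stimulated genes (26 of 44 higher) and sterol biosynthesis (8 of 25 higher) are mostly apart from or opposite to the line difference.

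Genes of the extracellular matrix fell into both groups. Of 17 interstitial collagen chains measured, 11 were lower and 2 higher (76.5% called, against 30.8% of all genes tested). Of these, 9 of the lower and both of the higher chains followed 786-O. The list had a median log2 fold change of -1.26 (-1.43 to -1.19 under the alternatives). COL5A1, a chain of type V collagen, was at 545, 541 and 554 CPM in the A498 libraries and at 0.708, 0.766 and 0.469 CPM in A498-Su, against 0.573 ± 0.141 CPM in 786-O. Its log2 fold change was -9.73 (SE 0.13, adjusted p = 4.84e-17). The 12 fibroblast markers summed to 67.7 to 79.0 CPM in the A498 libraries and to 33.1 to 35.6 CPM in those of A498-Su, and their part in this result was not tested. COL1A1 belongs to both lists and made up 55.4 CPM of the sum in A498 (mean), while of the 6 fibroblast markers that could be tested 3 were higher and 2 lower. DCN was at 0 counts in A498-Su, and PDPN in both groups. COL1A1 fell from 55.4 ± 5.88 to 3.70 ± 0.128 CPM, and COL6A1 and COL6A2 from 283 and 386 to 106 and 161 CPM. COL6A3, a further chain of type VI collagen, went the other way but stopped far short of the reference line, at 3.43 ± 0.395 CPM in A498-Su against 210.0 ± 14.1 CPM in 786-O. Of 23 basement membrane genes 7 were higher and 7 lower (60.9% called). NID1, the laminin-binding nidogen, was at 207, 201.3 and 204 CPM in A498 and at 0.634, 1.05 and 0.978 CPM in A498-Su, below the 29.3 ± 0.735 CPM of 786-O and next to the 1.04 ± 0.368 CPM of resistant 786-O. Laminin chain LAMA5 fell from 558 ± 38.7 to 81.5 ± 5.87 CPM. COL4A3 and COL4A4, chains of the mature glomerular and tubular basement membrane, rose from 0.532 and 1.40 to 2.39 and 5.95 CPM, opposite to 786-O. Of 19 integrins 3 were higher and 8 lower (57.9% called). ITGB3, the partner of ITGAV in the vitronectin receptor, fell from 385 ± 1.78 to 107 ± 2.75 CPM, and ITGB8, which serves the activation of TGF-beta, rose from 13.96 ± 0.286 to 128 ± 6.77 CPM.

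Genes of kidney identity were followed through transcription factors and tubule proteins. Of 23 nephron transcription factors measured, 5 rose and 7 fell in A498-Su (52.2% called, against 30.8% of all genes tested). Among these 12, 11 were following genes. WT1, a regulator of nephron progenitors and podocytes, was at 0, 0.0930 and 0.0368 CPM in the A498 libraries and at 13.8, 13.7 and 14.3 CPM in A498-Su, with 27.6 ± 0.593 CPM in 786-O. SIM1 rose from 0.0819 ± 0.0407 to 14.6 ± 1.17 CPM, past the 3.92 ± 0.256 CPM of 786-O. POU3F3, which patterns the distal nephron, was at 28.0, 26.0 and 26.7 CPM in A498 and at 0.410, 0.431 and 0.469 CPM in A498-Su. SIX2, the factor of nephron progenitors, was at 3.46 ± 0.340 CPM in A498 and had no count in A498-Su. HNF4A, a factor of the proximal tubule, fell from 4.04 ± 1.67 to 0.521 ± 0.0791 CPM. Among 25 tubule cell proteins, 8 were higher and 7 lower (60.0% called). Of these 15 genes 7 were following, 4 apart from both lines, 1 opposite and 3 in no other class. The brush border peptidase ANPEP fell from 960.0 ± 28.3 to 69.0 ± 4.27 CPM, near its 52.6 ± 1.30 CPM in 786-O, and keratin KRT19 rose from 11.2 ± 0.439 to 71.8 ± 2.39 CPM. CLDN2, the pore-forming claudin of the proximal tubule, was at 3.21, 2.74 and 3.35 CPM in A498 and at 41.2, 39.4 and 40.1 CPM in A498-Su, with a log2 fold change of 3.69 (SE 0.22, adjusted p = 8.61e-10). Parental 786-O had 2.43 ± 0.344 CPM and resistant 786-O 3.10 ± 1.39 CPM, so that A498-Su stood above the other 3 groups. HAVCR1, the kidney injury molecule, stood likewise at 164 ± 2.70 CPM in A498-Su, against 57.1 ± 0.635 in A498, 63.2 ± 1.71 in 786-O and 66.8 ± 11.5 CPM in resistant 786-O. Of 17 mesenchymal genes 6 were higher and 4 lower (58.8% called). Fibronectin FN1 rose from 694 ± 28.7 to 2801 ± 156 CPM, short of the 7635 ± 542 CPM of 786-O, and SNAI1, a repressor of epithelial genes, fell from 44.7 ± 1.44 to 5.35 ± 0.262 CPM. Of 36 HOX genes 5 were higher and 5 lower, so that 27.8% were called, near the share over all genes tested. HOXA11 fell from 52.9 ± 2.93 to 5.28 ± 0.445 CPM, and HOXD13 was at 1.83 ± 0.404 CPM in A498 with no count in A498-Su.

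Genes that changed in the same direction lay next to each other in 33 runs of at least 5 tested genes, which held 240 genes, 186 of them following. Following genes made up 65.3% of all changed genes. Of the 33 runs 11, with 116 genes, lay on chromosome 19, which held 1372 of the 19929 genes tested. The longest comprised 21 genes each, at chr19:11559374-12441021 and chr19:52336243-53392217, and 19 genes of either carry a zinc finger (ZNF) name. In the first, 20 of the 21 were following genes, and the median log2 fold change was 6.77 for A498-Su and 6.69 for 786-O. In the second 19 were following, with medians of 5.77 and 4.29. Another run of 17 such genes lay at chr19:19865882-21767579, with medians of 4.59 and 3.96. KRAB zinc finger proteins, which these clusters encode, are repressors of transcription that act mostly on retroelements. The group was chosen after its values were seen, and no test is given. Of 222 tested protein-coding ZNF genes of chromosome 19, 105 (47.3%) were higher in A498-Su and 20 lower. In contrast, 13.0% of 238 ZNF genes of other chromosomes were higher, as were 7.22% of the 803 other protein-coding genes of chromosome 19. A mean under 1 CPM was seen for 80 of the 222 genes in A498, and for 18 in A498-Su, 21 in 786-O and 19 in resistant 786-O. ZNF160 was at 0, 0 and 0.0368 CPM in the A498 libraries and at 16.4, 18.3 and 15.8 CPM in A498-Su, with 8.81 ± 0.374 CPM in 786-O and 16.5 ± 0.494 CPM in resistant 786-O. ZNF700 was at 0.0869, 0.0930 and 0.110 CPM in A498 and at 10.4, 10.7 and 10.1 CPM in A498-Su, with 10.3 ± 0.689 CPM in 786-O. Members of these clusters are similar in sequence, so single genes could have received reads of their neighbours.

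**Figure D4:**
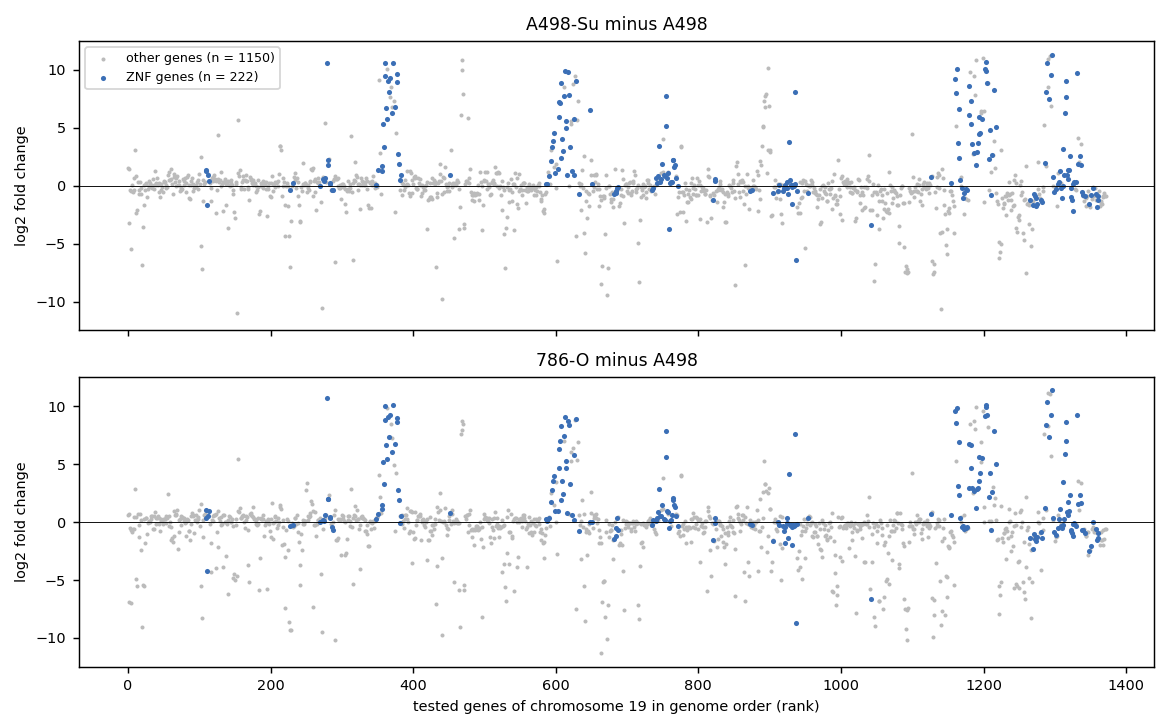
Log2 fold change over A498 of A498-Su (upper panel) and of 786-O (lower panel) for the tested genes of chromosome 19 in genome order, with 222 ZNF genes in blue and 1150 other genes in grey. Clusters of ZNF genes stand above 0 at the same ranks in both panels.

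Receptors and transporters that bear on the drug were examined next. Of 9 kinases listed as targets of sunitinib 2 were expressed highly enough to be tested. PDGFRB, a PDGF receptor, was at 0.290, 0.139 and 0.294 CPM in the A498 libraries and at 5.41, 5.12 and 5.95 CPM in A498-Su, with a log2 fold change of 4.43 (SE 0.36, adjusted p = 2.44e-08). Parental 786-O had 0.268 ± 0.0957 CPM and resistant 786-O 0.397 ± 0.245 CPM, so that A498-Su alone was high. Of 31 other receptor tyrosine kinases, 10 were higher and 11 lower (67.7% called, against 30.8% of all genes tested). Among these 21, 13 were following genes. AXL, a receptor of the TAM family that had been followed by immunoblot in this study, was at 219, 226 and 225 CPM in A498 and at 754, 739 and 735 CPM in A498-Su. Its log2 fold change was 1.73 (SE 0.09, adjusted p = 1.84e-10), and it was a following gene, with 564 ± 1.09 CPM in 786-O and 720.2 ± 128 CPM in resistant 786-O. FGFR2, FGFR3 and ERBB2, growth factor receptors, were apart from both lines, rising from 17.2, 2.66 and 61.5 to 74.1, 12.3 and 132 CPM. Ephrin receptors EPHB4 and EPHA7 fell with 786-O, from 131 and 29.0 to 1.58 and 0.108 CPM. Of 13 drug efflux transporters 3 were higher and 5 lower (61.5% called). ABCC2 fell from 209 ± 9.01 to 5.50 ± 0.956 CPM and ABCG2 from 22.5 ± 0.535 to 5.96 ± 0.0770 CPM, both following genes. ABCB1, which encodes P-glycoprotein, was at 46.4 ± 1.07 CPM in A498 and at 31.2 ± 0.296 CPM in A498-Su, a difference within 2-fold. ABCA2, a transporter of lysosomes, rose from 87.1 ± 3.56 to 267 ± 9.45 CPM and was apart from both lines. Of the 12 genes whose proteins were examined by immunoblot, AXL was higher and MAPK3, which encodes ERK1, was lower, at 31.4 ± 0.808 CPM against 72.2 ± 1.95 CPM. CD274, which encodes PD-L1, was at 7.88, 8.27 and 8.20 CPM in A498 and at 9.02, 8.52 and 9.27 CPM in A498-Su, with a log2 fold change of 0.14 (SE 0.22, adjusted p = 0.573), so that no change was detected at this spread.

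The changes that cannot be read off the line difference came next. Among the genes apart from both lines and higher in A498-Su, MX2, an antiviral GTPase induced by interferon, was at 1.10, 0.930 and 0.993 CPM in A498 and at 76.4, 81.7 and 74.8 CPM in A498-Su, with a log2 fold change of 6.25 (SE 0.18, adjusted p = 1.66e-13). DHRS2, a mitochondrial dehydrogenase, rose from 0.631 ± 0.138 to 27.3 ± 0.734 CPM, ELFN1, a synaptic adhesion protein, from 0.544 ± 0.0197 to 23.4 ± 1.51 CPM, and SPINK1, a trypsin inhibitor, from 0.689 ± 0.121 to 28.7 ± 0.821 CPM. All 3 were under 1 CPM in 786-O. In resistant 786-O, however, they were at 31.3 ± 1.601, 24.6 ± 10.6 and 49.0 ± 29.1 CPM, and MX2 was at 37.7 ± 7.21 CPM, so that both resistant lines were above both parental ones. CLDN16, the claudin of magnesium transport in the thick ascending limb, was at 0.434, 0.186 and 0.331 CPM in A498 and at 11.9, 10.3 and 9.82 CPM in A498-Su, with 0.224 ± 0.0978 CPM in 786-O and 0.709 ± 0.314 CPM in resistant 786-O. CLDN16 was thus high in A498-Su and close to 0 elsewhere.

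Among the genes apart from both lines and lower in A498-Su, MALL, a lipid raft protein, was at 24.8, 21.8 and 25.3 CPM in the A498 libraries and at 0.0373, 0.0479 and 0.0391 CPM in A498-Su, at least 193-fold lower. Parental 786-O had 12.1 ± 0.546 CPM and resistant 786-O 0.349 ± 0.293 CPM. P2RY2, a receptor for extracellular ATP, was at 10.9, 12.5 and 11.4 CPM in A498 and at 0.0746, 0.0479 and 0.0391 CPM in A498-Su, at least 93.6-fold lower. Both genes were thus expressed in the parental lines and nearly silent in A498-Su. LOX, which crosslinks collagen, fell from 17.4 ± 0.518 to 0.627 ± 0.0422 CPM, and the matrix glycoprotein TNC from 151 ± 8.58 to 14.3 ± 0.257 CPM. Resistant 786-O was low in these genes too, with P2RY2 at 0.338 ± 0.152, LOX at 0.830 ± 0.398 and TNC at 25.8 ± 25.4 CPM. CSF2, which encodes GM-CSF, fell from 14.9 ± 1.84 to 0.974 ± 0.231 CPM, against 11.6 ± 5.35 CPM in resistant 786-O. G0S2, an inhibitor of the lipase that empties lipid droplets, fell from 66.04 ± 3.51 to 6.22 ± 0.563 CPM, with 87.8 ± 2.77 CPM in 786-O and 25.9 ± 8.0002 CPM in resistant 786-O.

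Interferon-stimulated genes departed from the line difference. Interferons act through transcription factors such as STAT2 and IRF9, which bind the interferon-stimulated response element (ISRE) upstream of their target genes. Its core letters, GAAA, any 2 bases and GAAA again, were searched on both strands of RefSeq promoter windows (GRCh38.p14) from 250 bases before to 50 bases after each start. They were found in 60.4% of the 48 windows of the 35 list members that have one, against 2.98% of the 18097 windows of all genes tested with one. Stretches of 70 bases with a match are shown for 5 members, with the matched letters in capitals, because 4 of them rose and 1 fell.
ISG15, chr1:1013354-1013423, plus strand: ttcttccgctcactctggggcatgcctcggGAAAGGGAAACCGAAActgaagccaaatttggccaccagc
IFI6, chr1:27672309-27672378, minus strand: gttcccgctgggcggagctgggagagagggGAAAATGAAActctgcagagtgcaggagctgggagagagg
IFITM1, chr11:313970-314039, plus strand: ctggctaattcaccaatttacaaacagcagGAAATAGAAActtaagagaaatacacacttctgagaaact
RSAD2, chr2:6877602-6877671, plus strand: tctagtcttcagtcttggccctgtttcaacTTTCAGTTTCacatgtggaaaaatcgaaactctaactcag
MX1, chr21:41431824-41431893, plus strand: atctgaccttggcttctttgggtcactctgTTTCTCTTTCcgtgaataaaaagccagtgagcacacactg
In RSAD2 and MX1 the match lies on the opposite strand and reads as its reverse complement. A match is a description of these letters and not of a bound site.

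Of 44 interferon-stimulated genes measured, 26 were higher in A498-Su and 1 was lower. The 26 comprised 15 genes opposite to the line difference and 9 apart from both lines, which is 34.1% and 20.5% of the list, against 0.863% and 3.05% of all genes tested in this direction. The median log2 fold change was 1.09 (0.93 to 1.18 under the alternatives), whereas it was -1.52 for 786-O over A498 and 2.22 for resistant 786-O over 786-O. A further 15 members differed between the parental lines while A498-Su stayed within 2-fold of A498. ISG15, the ubiquitin-like modifier, was at 58.5, 61.0 and 55.3 CPM in the A498 libraries and at 538, 560.4 and 522 CPM in A498-Su, with a log2 fold change of 3.21 (SE 0.22, adjusted p = 3.01e-09). Parental 786-O had 70.3 ± 5.17 CPM and resistant 786-O 567 ± 254 CPM. IFI6, which inhibits apoptosis, was at 127, 128 and 124 CPM in A498 and at 702, 747 and 723 CPM in A498-Su, although it was at only 19.4 ± 0.955 CPM in 786-O. RSAD2, the antiviral enzyme viperin, was at 10.7, 13.3 and 12.7 CPM in A498 and at 163, 158 and 151 CPM in A498-Su, with 3.67 ± 0.324 CPM in 786-O. IFITM1, which blocks viral entry, was at 6.22, 4.83 and 3.90 CPM in A498 and at 43.1, 52.3 and 47.1 CPM in A498-Su, with 0.161 ± 0.0528 CPM in 786-O. For these members the A498-Su libraries were above all A498 and 786-O libraries. Of the signalling components, STAT2 rose from 57.6 ± 0.982 to 165 ± 6.86 CPM. MX1, an antiviral GTPase, was the exception. It was at 369, 376 and 334 CPM in A498 and at 73.1, 79.1 and 71.4 CPM in A498-Su, with 5.53 ± 0.344 CPM in 786-O, and thus fell while the neighbouring MX2 rose. IFI27 and OASL were at 167 ± 7.47 and 76.3 ± 4.84 CPM in A498 and at 171 ± 7.24 and 74.8 ± 2.68 CPM in A498-Su, without a called change.

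**Figure D5:**
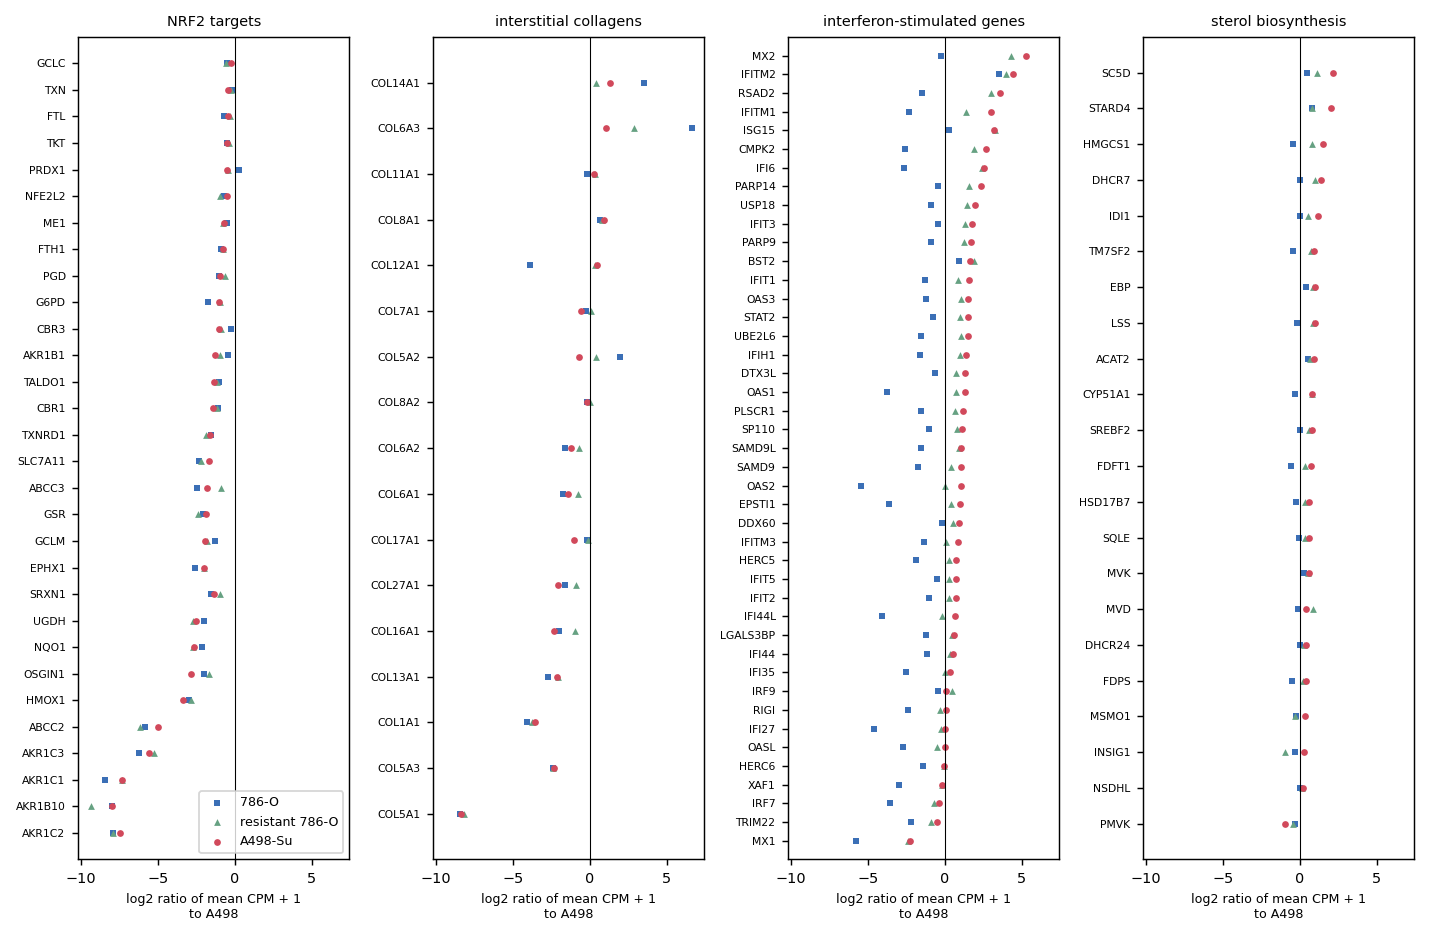
Log2 ratio of mean CPM + 1 to A498 for tested members of 4 lists in A498-Su (circles), 786-O (squares) and resistant 786-O (triangles). For NRF2 targets and interstitial collagens the symbols of a gene mostly lie together, whereas for interferon-stimulated genes those of 786-O mostly lie to the left of 0 and those of A498-Su to the right of them.

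Of 18 genes of MHC class I presentation, 6 (33.3%) were higher in A498-Su and none was lower, against 14.3% and 16.5% of all genes tested, and 4 of the 6 were apart from both lines. The median log2 fold change of this list was 0.72 for A498-Su over A498 and 1.15 for resistant 786-O over 786-O. B2M, the shared light chain, rose from 1275 ± 29.9 to 3143 ± 78.5 CPM, and the peptide transporter TAP1 from 118 ± 1.16 to 309 ± 10.6 CPM. Among 13 checkpoint ligands 5 were higher and 2 lower (53.8% called, against 30.8% of all genes tested). LGALS9, which encodes galectin-9, a ligand of the T cell receptor TIM-3, was at 4.00, 3.44 and 3.38 CPM in A498 and at 35.4, 39.2 and 35.8 CPM in A498-Su. Parental 786-O had 0.0444 ± 0.0769 CPM and resistant 786-O 17.2 ± 6.48 CPM, and its log2 fold change was 3.34 (SE 0.24, adjusted p = 5.98e-09). VTCN1, the ligand B7-H4, rose from 1.83 ± 0.340 to 5.67 ± 0.444 CPM, opposite to 786-O, in which it was at 0.00740 ± 0.0128 CPM. VSIR, the ligand VISTA, fell from 38.8 ± 1.03 to 11.9 ± 0.413 CPM.

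Most called genes of sterol synthesis were apart from both lines too. Cholesterol is made from acetyl-CoA by enzymes that SREBP2 induces when sterols in the endoplasmic reticulum run low. Of 25 genes of this list 8 were higher in A498-Su and 1 was lower, and 7 of the 8 were apart from both lines (28.0% of the list, against 3.05% of all genes tested). The median log2 fold change was 0.73 (0.66 to 0.80 under the alternatives), with -0.14 for 786-O over A498. It was 0.51 for resistant 786-O over 786-O. HMGCS1, the first committed enzyme of the pathway, was at 186, 176 and 168 CPM in the A498 libraries and at 493, 512 and 491 CPM in A498-Su, with 129 ± 2.06 CPM in 786-O. Its log2 fold change was 1.497 (SE 0.05, adjusted p = 1.2e-12). SC5D, a late desaturase of the pathway, was at 29.3, 30.4 and 28.4 CPM in A498 and at 136, 138 and 134 CPM in A498-Su, with a log2 fold change of 2.21 (SE 0.07, adjusted p = 5.45e-13). All A498-Su libraries were above those of both parental lines in these genes. IDI1 and DHCR7, enzymes of isoprenoid isomerisation and of the last step to cholesterol, rose from 85.5 and 106 to 195 and 279 CPM. STARD4, which carries sterols between membranes, rose from 24.5 ± 1.39 to 103 ± 1.69 CPM. Of 17 genes of fatty acid synthesis 2 were higher and none lower (11.8% called, against 30.8% of all genes tested). They were the desaturases FADS2, with 741 ± 16.2 CPM against 263 ± 15.8 CPM, and SCD5, with 4.22 ± 0.480 CPM against 0.0683 ± 0.0741 CPM. FASN, the fatty acid synthase, was at 513 ± 8.52 CPM in A498 and at 721 ± 48.9 CPM in A498-Su.

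Of 54 lysosomal genes 8 were higher and 4 lower, so that 22.2% were called, against 30.8% of all genes tested. The 4 lower genes were following genes, while 6 of the higher genes were apart from both lines. The median log2 fold change of this list was 0.31 for A498-Su over A498 and 0.51 for resistant 786-O over 786-O. ASAH1, an acid ceramidase, was at 43.8, 45.4 and 46.1 CPM in the A498 libraries and at 213, 218 and 214 CPM in A498-Su, with a log2 fold change of 2.26 (SE 0.08, adjusted p = 3.04e-12). The groups did not overlap, and 786-O was at 90.1 ± 2.30 CPM. Neuraminidase NEU1 rose from 86.4 ± 3.03 to 308 ± 2.58 CPM, prosaposin PSAP from 1130.0 ± 21.6 to 3128 ± 19.9 CPM, and HEXA, a subunit of hexosaminidase, from 46.7 ± 1.25 to 126 ± 4.65 CPM. Cathepsin CTSF, a following gene, was at 17.9, 16.2 and 17.03 CPM in A498 and at 0.0373, 0.0957 and 0 CPM in A498-Su. Subunit ATP6V0A1 of the proton pump fell from 131 ± 7.99 to 39.0 ± 1.06 CPM.

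Of 24 cytokines and chemokines 10 were lower and 4 higher in A498-Su (58.3% called, against 30.8% of all genes tested). Of the lower genes 5 were apart from both lines. CXCL8, the neutrophil chemokine interleukin-8, was at 41.1, 43.4 and 46.0 CPM in the A498 libraries and at 5.67, 5.55 and 4.07 CPM in A498-Su, with a log2 fold change of -3.10 (SE 0.11, adjusted p = 2.35e-12). Parental 786-O had 46.3 ± 1.53 CPM and resistant 786-O 46.6 ± 5.34 CPM, so that A498-Su alone was low. IL6 was at 31.6, 37.4 and 37.4 CPM in A498 and at 14.02, 14.9 and 11.9 CPM in A498-Su, with 31.3 ± 0.0621 CPM in 786-O and 52.2 ± 4.41 CPM in resistant 786-O. LIF, a cytokine of the IL6 family, fell from 186 ± 6.71 to 71.6 ± 1.70 CPM. CSF1, the growth factor of macrophages, fell from 1234 ± 48.9 to 200.9 ± 3.83 CPM and CCL2, which attracts monocytes, from 66.8 ± 3.91 to 4.47 ± 0.524 CPM, both following genes. CXCL5 and CX3CL1 rose with 786-O, from 0.115 and 1.55 to 16.4 and 25.5 CPM.

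Besides RSAD2, LGALS9 and IFITM1, the higher genes opposite to the line difference with the largest changes were APBA1, SAA1 and TMEM98. APBA1, a neuronal adaptor protein, rose from 0.940 ± 0.252 to 12.6 ± 0.584 CPM against 0.222 ± 0.0373 CPM in 786-O. SAA1, an acute phase protein, was at 13.6, 13.8 and 13.5 CPM in A498 and at 142, 130.1 and 125 CPM in A498-Su, with 6.80 ± 0.383 CPM in 786-O. TMEM98, a membrane protein, rose from 4.79 ± 1.01 to 34.3 ± 0.982 CPM. In resistant 786-O these genes were likewise above A498, with 17.7 ± 0.637 CPM for APBA1, 138 ± 44.4 CPM for SAA1 and 22.7 ± 1.59 CPM for TMEM98. In the other direction B3GALNT1, which synthesises globoside (chr3:161083883-161105411), was at 10.4, 9.99 and 11.3 CPM in A498 and at 0.0373, 0 and 0.0391 CPM in A498-Su, at least 84.9-fold lower, although it was at 25.5 ± 0.274 CPM in 786-O. It was the one gene of its direction that switched off, and resistant 786-O was at 0.820 ± 0.797 CPM. The other 5 genes lay between 2.78-fold and 4.06-fold below A498. PEG10, a gene of retrotransposon origin, fell from 162 ± 6.63 to 58.4 ± 1.41 CPM and LPXN, an adaptor of focal adhesions, from 69.8 ± 1.81 to 17.2 ± 0.976 CPM. TNFRSF9, the costimulatory receptor 4-1BB, fell from 33.4 ± 2.28 to 10.8 ± 0.785 CPM, and connexin GJB2 from 15.7 ± 0.686 to 5.10 ± 0.764 CPM. ARHGAP22, a regulator of Rac, fell from 16.2 ± 1.89 to 4.18 ± 0.414 CPM. In resistant 786-O PEG10 was at 72.1 ± 8.14, LPXN at 29.5 ± 17.9 and TNFRSF9 at 12.8 ± 0.668 CPM. GJB2 was at 6.91 ± 0.443 and ARHGAP22 at 9.07 ± 3.35 CPM there, so that all 5 genes were below A498 too.

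Line differences that A498-Su did not carry comprised 775 genes higher and 1277 lower in 786-O than in A498, with a median absolute log2 difference between the lines of 1.41. The class was set by the 2-fold limit. In 1582 of its 2052 genes the log2 fold change over A498 had the same sign in A498-Su as in 786-O. The median was 0.271 of the line difference, so that many of these genes moved part of the way. Genes with the largest line differences are given as a description. ALDH2, which oxidises acetaldehyde, was at 0.666, 0.372 and 0.294 CPM in the A498 libraries and at 0.596, 0.526 and 0.509 CPM in A498-Su, whereas 786-O had 47.2 ± 3.14 CPM, against 2.76 ± 1.71 CPM in resistant 786-O. GALNT5, which starts O-glycans, and ALPK3, a kinase of muscle, were at 0.333 and 0.898 CPM in A498-Su, against 27.8 and 37.3 CPM in 786-O. TMEM163, a zinc transporter, and ZNF185, an actin-binding protein, were at 1.31 and 1.95 CPM against 10.2 and 16.2 CPM. TRIM9, a ubiquitin ligase, was at 5.10 ± 0.0684 CPM in A498-Su and 23.9 ± 0.696 CPM in 786-O. These 6 genes were thus low in A498-Su and A498 alike. In resistant 786-O they were low too, with 2.07, 2.57, 2.01, 2.91 and 2.45 CPM for the other 5 in the order given. Of those low in 786-O, CERS4, a ceramide synthase, was at 14.5, 13.4 and 13.8 CPM in A498 and at 7.08, 8.61 and 7.36 CPM in A498-Su, with 0.0843 ± 0.0346 CPM in 786-O and 7.73 ± 0.960 CPM in resistant 786-O. OSBPL1A, which binds sterols on endosomes, was at 17.6 ± 1.45 CPM in A498, 26.7 ± 0.428 CPM in A498-Su and 0.166 ± 0.0609 CPM in 786-O. CLGN, a chaperone of the endoplasmic reticulum, was at 19.4 ± 0.799 CPM in A498, 21.0 ± 1.25 CPM in A498-Su and 0.604 ± 0.0938 CPM in 786-O. KSR1, a scaffold of the RAF and MEK kinases, TMC6, a membrane channel protein, and NKAIN4, which interacts with the sodium pump, were at 11.3, 9.27 and 9.86 CPM in A498-Su, each with under 0.5 CPM in 786-O.

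Of 9 oxygen sensing genes 2 were lower and none higher (22.2% called, against 30.8% of all genes tested). HIF1A, the hypoxia-inducible factor subunit (chr14:61695513-61748259), was at 311, 312 and 292 CPM in the A498 libraries and at 8.87, 8.42 and 9.08 CPM in A498-Su, with 10.8 ± 0.634 CPM in 786-O. The log2 fold change was -5.11 (SE 0.07, adjusted p = 4.66e-17), and the groups did not overlap. EPAS1, which encodes HIF2A, was at 159.7 ± 2.75 CPM in A498 and at 237 ± 11.1 CPM in A498-Su. Of 31 hypoxia-inducible targets 4 were higher and 6 lower, so that 32.3% were called, near the share over all genes tested. CXCR4 fell from 34.6 ± 0.444 to 0.372 ± 0.0588 CPM with 786-O, and the adenylate kinase AK4 rose from 12.8 ± 1.33 to 107 ± 1.99 CPM. Of 22 glycolytic genes 1 was higher, the enolase ENO2, with 112 ± 0.699 CPM against 6.36 ± 0.745 CPM, and 1 lower, the aldolase ALDOC, with 1.19 ± 0.393 CPM against 29.9 ± 1.47 CPM. Of 70 nuclear genes of oxidative phosphorylation 2 were higher and 3 lower. Of its 13 mitochondrial genes none was higher and MT-CYB was lower. The median log2 fold change was 0.15 for the nuclear genes, against -0.0041 over all genes. It was -0.41 for the mitochondrial genes (-0.54 to -0.30 under the alternatives). The libraries of A498-Su and A498 did not overlap in 7 of these 13, and in 78.5% of all genes tested. DNA replication had 2 lower genes of 32, and mitosis 2 higher genes of 26, among them the proliferation marker MKI67, at 499.8 ± 22.6 CPM against 235 ± 10.2 CPM. None of 22 chaperones of the endoplasmic reticulum was called. From glycolysis to the chaperones, each list thus had a smaller share of called genes than the 30.8% of all genes tested. Of 31 genes of the ATF4 amino acid response 1 was higher and 8 lower, so that 29.0% were called, near the share over all genes tested. PHGDH, the first enzyme of serine synthesis, was at 392, 370.5 and 381 CPM in A498 and at 1.49, 1.72 and 1.02 CPM in A498-Su, with 0.198 ± 0.0302 CPM in 786-O. ASNS, the asparagine synthetase, was at 3.48 ± 0.183 CPM in A498 and at 1.27 ± 0.217 CPM in A498-Su. Of 4 metallothioneins measured, a family of similar sequence that makes single reads uncertain, MT1E and MT1F rose with 786-O, from 0.272 and 0.983 to 117 and 9.45 CPM, and MT1X fell from 8.37 to 2.56 CPM.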

How the data were processed

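mRNA libraries of A498, A498-Su, 786-O and resistant 786-O were used, with 3 replicates each and groups taken from the labels. The values are counts of reads per gene, deposited by the authors as they were and not scaled. As the paper's methods and the submitters' processing notes have it, the authors demultiplexed with bcl2fastq 2.19.0, trimmed with Trimmomatic 0.36.6, aligned to hg38 with HISAT2 2.1.0 and counted sense reads over exons of GENCODE 33 with featureCounts 1.6.3. Reads shared between similar genes can distort single counts.

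They were fitted with edgeR 4.0.16 (R 4.3.3), using filterByExpr, TMM normalization and 1 quasi-likelihood fit to all 4 groups (12 libraries), which assumes a common trend of the spread. The Benjamini-Hochberg adjustment covered 19929 genes, and a gene was called at an adjusted p under 0.05 and an absolute log2 fold change over 1, with a prior count of 0.125. The code was tested on simulated data. Gene positions came from GENCODE 44, on the GRCh38 assembly, and tables and figures were made with Python 3.11.15, pandas 2.3.3 and matplotlib 3.10.9.

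Genes named were, in each class and direction, the 6 with the largest absolute log2 fold change among protein-coding genes whose higher group averaged 10 CPM or more and libraries that did not overlap, outside the Y chromosome and without XIST and TSIX, the 6 highest and 6 lowest line differences not carried, and members of 29 lists. Some genes of these sets are not reported here. ZNF genes and runs of neighbouring genes were chosen after their values were seen. Classes, lists and rules were chosen with earlier results of these data known.

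Same-numbered replicates of A498-Su and A498 did not deviate together in every pair, with correlations of 0.068, -0.009 and 0.111, so the numbers were not taken as pairs. The alternatives were DESeq2 1.42.0 size factors and its Wald test, scaling by library size alone, no filter, at least 10 counts in each library, fits of fewer groups, the replicate block, correction for GC content and length, thinning to the smallest library, glmTreat, a prior count of 2, the test named in the paper on raw counts and on CPM, and each replicate left out. Leaving out replicate 2 of resistant 786-O was added after seeing the data. Totals of 20042519 to 47972092 counts per library set the counting error of low genes. The paper's other assays were not used here.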

Additional observations from a re-analysis of the deposited data

Results flagged for a closer look

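The change from A498 to A498-Su was tested against the change from 786-O to resistant 786-O, as the difference between the differences in the same edgeR model. Of the 6137 genes changed in A498-Su, 4900 passed this test, while 68.3% of all genes tested did. The 6137 genes were chosen by the change from A498 to A498-Su, which is part of this test. Their share was thus partly set by that choice. Over all genes 13607 passed, and 14731 without replicate 2 of resistant 786-O, which stood apart from its group. Among the following genes 3657 of 4010 passed. Both comparisons that define this class share libraries with the test, so this count was partly set in advance. GSTP1, a following gene, changed by 10.64 on the log2 scale from A498 to A498-Su and by 0.37 between the 786-O lines. Among the genes apart from both lines 383 of 946 passed, a class whose rule used the 786-O libraries that this test uses as well. CLDN16, with log2 fold changes of 4.98 for A498-Su and 1.67 for resistant 786-O, passed (adjusted p = 0.000124).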

How the results depend on the processing

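A minimum of 10 counts in every library, which tests fewer genes and drops those that are silent in a group, gave 3050 changed genes in A498-Su against A498, 3122 in 786-O against A498 and 1883 in A498-Su against 786-O. It left 1735 following genes, 465 genes apart from both lines and 1317 line differences not carried. Testing against a 2-fold change with glmTreat gave 2240 genes in A498-Su against 786-O, 553 apart and 1211 not carried. Other counts stayed within 1.5 times. The paper's test, unadjusted in its methods, called 4844 genes on raw counts and 5687 on CPM, with the 2-fold limit added here. Following genes made up 56.9% to 67.2% of the changed genes over the alternatives, and higher genes 44.8% to 50.4%. Leaving out a replicate gave 6218 to 6424 changed genes in A498-Su, 6462 to 6745 in 786-O and 3883 to 4172 in A498-Su against 786-O, with 4074 to 4230 following, 964 to 997 apart and 2026 to 2126 not carried. The difference between the changes then called 13104 to 14731 genes. With the replicate block 6124 genes were changed, 6093 of them shared with the 6137, and 4010 followed. In A498-Su over A498, the medians of the basement membrane, HOX, other receptor tyrosine kinase, ATF4, oxygen sensing, chaperone, metallothionein and immunoblot lists changed sign under at least 1 alternative. The 36 changed genes named by size kept their direction and call in all 772 values that the 22 alternatives gave, but 16 of them alone were tested under the minimum of 10 counts. Of the 12 line differences not carried, GALNT5, CLGN and ALDH2, none of them called in A498-Su, changed sign in 7 of 259 values. Genes near the floor of 3 counts have folds given as bounds.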

Other observations

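Runs of neighbouring genes outside the zinc finger clusters were chosen after their values were seen, and no test is given. A run of 11 higher genes at chr19:42401514-43363172 holds the pregnancy-specific glycoproteins, whose similar sequences make single reads uncertain. Of these 5 were following genes and 3 apart from both lines, and the median log2 fold change was 3.40 for A498-Su and 1.11 for 786-O. A run of 7 lower genes at chr5:140794852-141098703 holds 6 clustered protocadherins of the alpha group and PCDHB2 of the beta group, adhesion proteins of neurons. All 7 were following genes, with medians of -7.00 and -7.99. At chr1:109656099-110023742 a run of 6 lower genes joins the glutathione transferases of the mu class with CSF1, and 5 of the 6 were following genes. Over whole chromosomes, 24.5% of the tested genes of chromosome 6 were higher in A498-Su than in A498, against 14.3% of all genes tested, and 24.1% of those of chromosome 17 were lower, against 16.5%.

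The letters of the antioxidant response element, TGAC and GC with any 3 bases between them, were searched on both strands of the same promoter windows. They were found in 25.9% of the 27 windows of NRF2 targets and in 14.4% of those of all genes tested. Those of the sterol regulatory element, TCAC and CCAC with any base between them, were found in 1 of 23 windows of the sterol genes, that of SREBF2, and in 1.12% of all windows.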
